A study of Mus musculus with 6 samples.

Results

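The mitochondrial protein import machinery was examined in bulk RNA-seq of subcutaneous white adipose tissue (scWAT). Its members were chosen by gene symbol: every symbol of the *Tomm* and *Timm* number series, plus 15 named genes of the sorting, folding, motor, processing and chaperonin steps. This rule found 39 of the 55401 genes in the count files, and 37 of them passed the filter on low counts that left 16807 genes for testing. *Tomm20l*, with counts of 1, 2 and 0 for YT-FF and of 3, 10 and 2 for YT-AKO, and *Timm8a2*, with 1, 4 and 0 and with 6, 0 and 5, did not pass and were not tested. *Tomm70a*, which encodes a TOM receptor, is not matched by the rule and is given separately below.

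The study asked what loss of the transcriptional coactivators YAP and TAZ in fat cells does to white fat, and compared scWAT of 3 YT-FF mice with that of 3 YT-AKO mice. All 6 were males 8 weeks old kept at 22 °C, and all carried floxed *Yap* and *Taz* alleles. YT-AKO mice, labelled Yapfl/fl/Tazfl/fl;AdipoqCre, also had a Cre recombinase that the *Adipoq* promoter drives in mature fat cells, so the other cells of the tissue keep both genes. The sample labels call the YT-FF genotype WT, and the name YT-FF is that of the study's methods.

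Most mitochondrial proteins are made in the cytosol and carried across the mitochondrial membranes. The TOM complex is the gate of the outer membrane, from which small TIM chaperones and the TIM22, SAM and MIA systems take membrane and intermembrane space proteins, while TIM23 and the PAM motor pull proteins with a presequence into the matrix. There the presequence is cut off by a processing peptidase and the protein is folded by HSP60 and HSP10; brown and beige fat cells are known for their dense mitochondria.

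The libraries held 17740987 to 21838493 counted fragments, with TMM factors of 1.07 to 1.16 in YT-FF and of 0.777 to 0.955 in YT-AKO, the lowest in YT-AKO 2. Counts were given as TMM-normalised CPM, counts scaled to a common library total, and, where levels of different genes were compared, as TPM, which also divide by exon length. The targeted gene *Yap1* had 1295 to 1622 counts in YT-FF and 492 to 649 in YT-AKO (log2 fold change -0.98, edgeR adjusted p = 0.0179). *Wwtr1*, which encodes TAZ, had 1729 to 1918 counts in YT-FF and 2253 to 3015 in YT-AKO (log2 fold change 0.89, edgeR adjusted p = 0.0220), so its counts were higher in YT-AKO. Such counts cover all exons of a gene and all cells of the tissue, and loss of the floxed exons was not tested. Every direction below is that of the libraries labelled YT-AKO. *Ucp1*, the uncoupling protein of thermogenic fat, had 84 to 191 counts in YT-FF and 2472 to 6694 in YT-AKO (log2 fold change 5.27, edgeR adjusted p = 0.00782). The 8 adipocyte markers were present in all libraries, with a summed level of 10586 to 15777 CPM in YT-FF and 17833 to 31655 CPM in YT-AKO. Of the 8, 2 rose, where 12.6% of all tested genes rose (edgeR adjusted p under 0.05). Their median log2 fold change was 0.42 and was 0.10 with library totals. *Fabp4*, a fatty acid carrier, made up much of that sum, with a mean of 5205 CPM in YT-FF and 13197 CPM in YT-AKO, while *Lep*, which encodes leptin, had a log2 fold change of -0.13 that was not called. In such bulk samples fewer cells of a type and less RNA per cell cannot be told apart.

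Promoters of a few members are shown first, as a description of their letters. Any link between these letters and the changes given below was not tested. RefSeq windows (GRCm38.p6), from 250 bases before to 50 bases after a start, were matched by symbol for 34 of the 39 members, and *Grpel2*, *Hspa9*, *Timm21*, *Tomm40l* and *Tomm7* had no window. Below are the stretch between the RefSeq starts of the head-to-head genes *Hspe1* and *Hspd1*, which encode HSP10 and HSP60, and the 250 bases before the starts of *Timm13* and *Timm8b*, which encode small TIM chaperones. Capitals mark matches to CCGGAAG (the ETS family, GABPA among them), AAGGTCA (the estrogen-related receptors), GAANNTTC (heat shock factor) and TGCGCATGC (NRF1), on either strand.
Hspd1-Hspe1, chr1:55087933-55088147, plus strand: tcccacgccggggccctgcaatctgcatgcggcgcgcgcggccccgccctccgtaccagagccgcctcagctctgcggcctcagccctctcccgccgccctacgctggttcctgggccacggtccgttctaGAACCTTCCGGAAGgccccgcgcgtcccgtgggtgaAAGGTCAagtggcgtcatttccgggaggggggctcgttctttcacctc
Timm13, chr10:80900970-80901219, minus strand: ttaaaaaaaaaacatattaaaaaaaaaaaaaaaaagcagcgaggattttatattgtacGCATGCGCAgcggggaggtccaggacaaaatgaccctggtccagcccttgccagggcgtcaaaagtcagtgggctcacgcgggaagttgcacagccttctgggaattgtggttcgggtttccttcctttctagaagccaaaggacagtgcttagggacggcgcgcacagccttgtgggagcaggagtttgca
Timm8b, chr9:50603651-50603900, plus strand: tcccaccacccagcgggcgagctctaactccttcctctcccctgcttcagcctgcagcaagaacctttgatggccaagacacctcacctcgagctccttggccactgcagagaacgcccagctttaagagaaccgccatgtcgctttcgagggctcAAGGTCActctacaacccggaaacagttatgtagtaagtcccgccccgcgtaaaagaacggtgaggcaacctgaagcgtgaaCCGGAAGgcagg

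The first stretch lies between starts that are 216 bases apart and holds the heat shock and ETS letters as overlapping matches, with AAGGTCA downstream of them as seen from *Hspd1* towards *Hspe1*. A further RefSeq start of *Hspd1* lies 95 bases inside *Hspe1*. The *Timm13* promoter holds the NRF1 letters on the other strand, and that of *Timm8b* holds AAGGTCA and, near its start, CCGGAAG.

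Over the 34 members with windows, CCGGAAG was found in 15, or 44.1%, against 9.93% of 27025 genes with a window and 18.2% of the 11767 tested genes among them. The members with it included *Grpel1*, *Mtx1*, *Mtx2*, *Pmpca*, *Pmpcb*, *Timm10*, *Timm23*, *Tomm22* and *Tomm34*, so both members that rose and members that were not called held it. *Hspd1* and *Hspe1*, which share the printed match, are both counted among the 15. AAGGTCA was found in 5 members, *Hspd1*, *Hspe1*, *Timm23*, *Timm44* and *Timm8b* (14.7%, against 5.38% of all genes and 4.15% of tested genes), and *Hspd1* and *Hspe1* share that match. The E-box CACGTG was found in 6 members (17.6%, against 8.09% and 11.1%), and the YY1 letters AAGATGGC in *Mtx1* and *Timm50* (5.88%, against 3.19% and 4.80%). TGCGCATGC was found in *Timm13* (2.94%, against 1.72% and 3.13%), GAANNTTC in *Hspd1*, *Hspe1* and *Timm9* (8.82%, against 9.04% and 7.05%), and the ATF4 letters TGATGCAA in 0 (against 1.03% and 0.756%). The printed GAANNTTC match is likewise shared by *Hspd1* and *Hspe1*. GGAATG, the core that TEAD factors bind with YAP and TAZ, was found in *Dnajc15*, *Timm10*, *Timm23* and *Timm29*, 11.8% of members against 16.6% of all and 14.7% of tested genes. Matches were searched on both strands and are a description of letters, not of bound sites.

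Most of the import machinery was higher in scWAT of the libraries labelled YT-AKO. By the quasi-likelihood test of edgeR, adjusted after Benjamini and Hochberg over all tested genes, 28 of the 37 tested members rose at an adjusted p under 0.05, where 12.6% of all 16807 tested genes rose, and 0 fell, where 9.01% of all tested genes fell. At an unadjusted p under 0.05 edgeR gave 33 members higher and 0 lower, and DESeq2 and limma-voom also called 0 lower. The share of all tested genes under that unadjusted limit was not counted. Such counts of members, here and below, therefore have no background share. The 9 members not called were *Tomm34*, *Tomm40l*, *Tomm6*, *Timm10b*, *Timm29*, *Timm21*, *Timm23*, *Grpel2* and *Pmpca*. The median log2 fold change of the tested members was 1.12, a fold of 2.17, beside -0.02 for all tested genes. Adjusted p-values of the called members ran from 0.0171 to 0.0393 in edgeR, so 0 met the study's stricter limits of an adjusted p under 0.01 with a log2 fold change over 1, as did 0.0892% of all tested genes. In DESeq2 22 members met those limits, beside 7.96% of all tested genes, and in limma-voom 0, beside 0.131%. In 33 members every YT-AKO library lay above every YT-FF library, as in 25.7% of all tested genes.

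**Figure D1:**
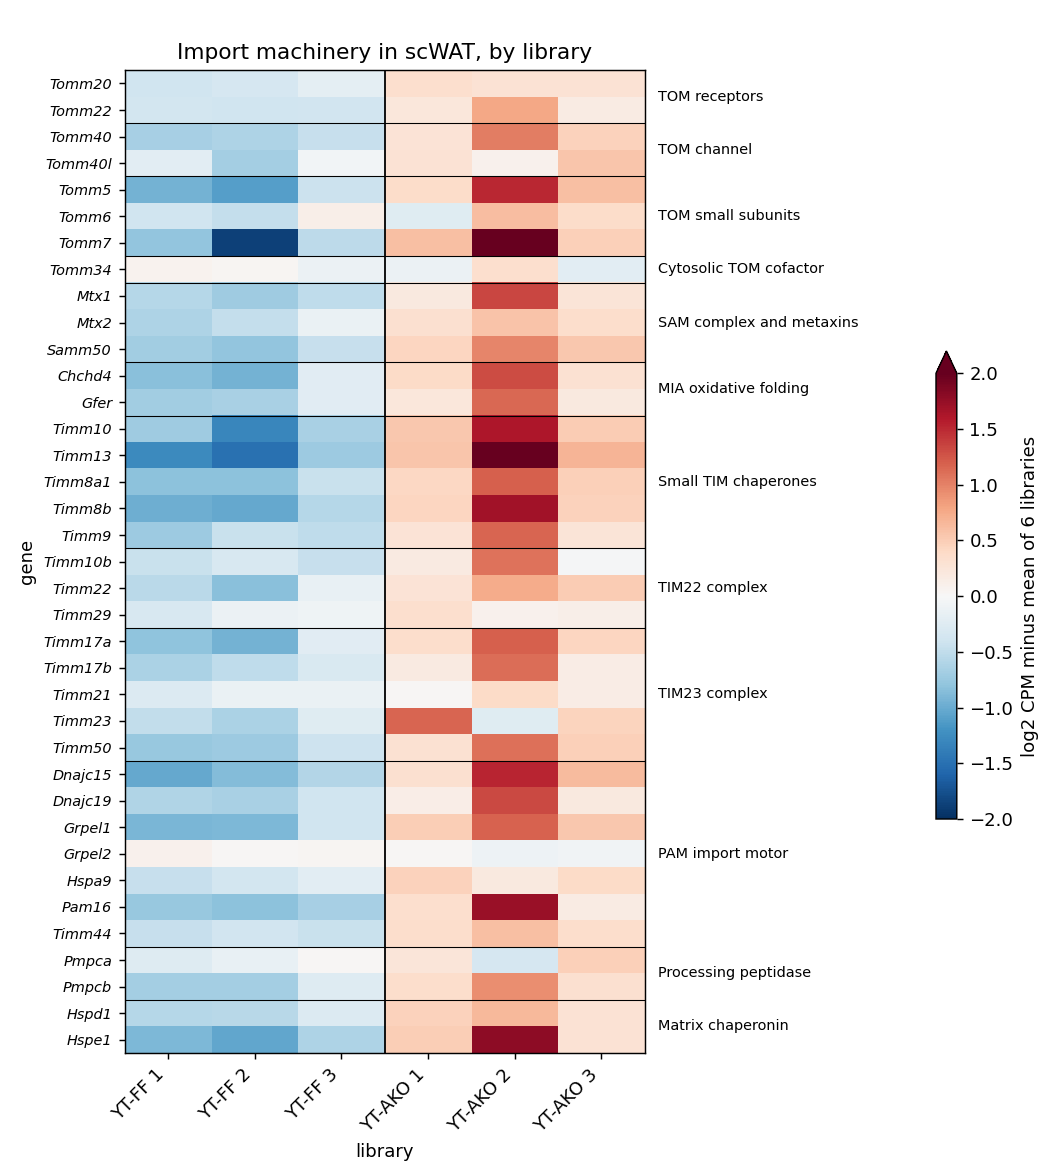
Colours give the log2 CPM (0.5 added) of each of the 37 tested members (rows, grouped by role) minus its mean over the 6 libraries (columns), and reach their limit at 2 on either side. The YT-FF columns are mostly blue and the YT-AKO columns mostly red, with the deepest red in YT-AKO 2, where *Tomm7* and *Timm13* pass the limit.

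The size of the change differed between libraries. The median deviation of the tested members from their mean over 6 libraries was -0.63, -0.65 and -0.39 on the log2 scale in YT-FF, and 0.33, 1.08 and 0.35 in YT-AKO, in replicate order. YT-AKO 2 had the highest level of all libraries in 30 of 37 members, and *Tomm40l*, *Timm29*, *Timm23*, *Grpel2*, *Hspa9* and *Pmpca* were instead lowest there among the YT-AKO libraries. Without YT-AKO 2, edgeR called 32 members higher, where 16.9% of all tested genes were called higher, and their median log2 fold change was 0.84; *Tomm40l*, *Timm29*, *Timm23* and *Pmpca* were the members gained. Without YT-FF 1 or YT-FF 2, edgeR called 0 members higher, where 0% of all tested genes were called higher, at medians of 1.03 and 1.05. In each case 29 members had an unadjusted p under 0.05, a count with no background share. Without YT-FF 3, 16 members were called, where 4.03% of all tested genes were. The calls therefore held in part of the leave-one-out fits, while 35 or 36 members had a positive log2 fold change in each of them. The median over all tested genes in these fits lay between -0.05 and -0.01.

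The scale also bears on these values. Scaling by library totals alone moved the median of all tested genes to -0.34 and that of the members to 0.77, with 23 members called, where 6.77% of all tested genes were called higher. The calls lost there were those of *Tomm20*, *Tomm22*, *Mtx2*, *Timm17b* and *Hspa9*. On the TPM scale the median log2 ratio of group means was -0.66 over all tested genes and 0.46 over the members. A higher mean TPM in YT-AKO was found in 31 members, where 20.7% of all tested genes had one, and 35 members lay above the median of all genes. The 6 members with a lower mean TPM in YT-AKO were *Tomm34*, *Grpel2*, *Timm21*, *Pmpca*, *Timm29* and *Tomm20*, of which *Tomm20* was called higher on the TMM scale.

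**Figure D2:**
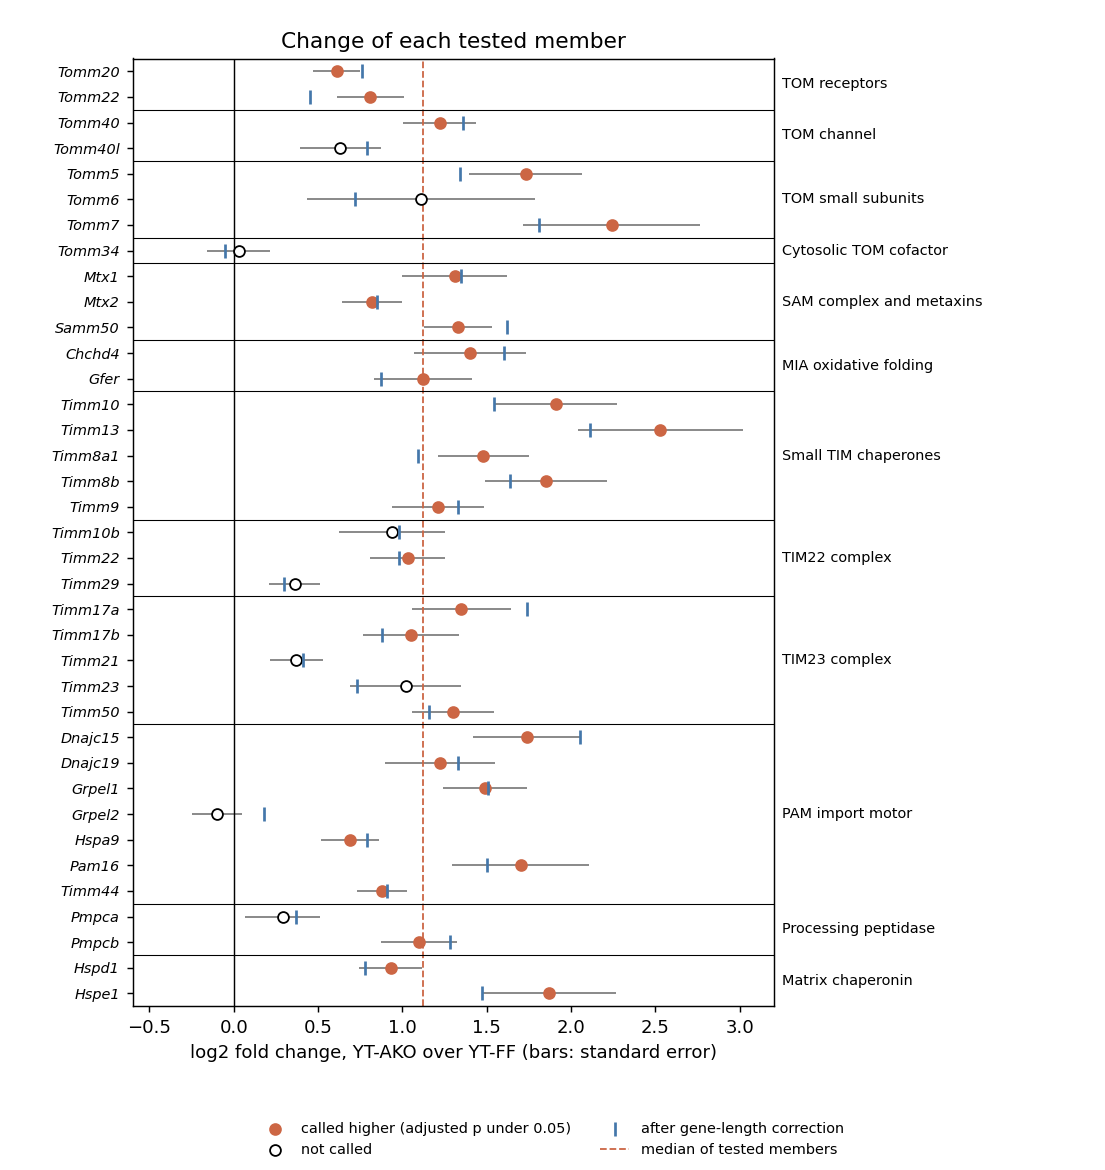
Points give the log2 fold change of YT-AKO over YT-FF (x axis) of each tested member (y axis, by role) with its standard error, filled where called higher, and blue ticks give the value after gene-length correction. All points but that of *Grpel2* (-0.10) lie right of 0, those of *Timm13* (2.53) and *Tomm7* (2.24) farthest, and the dashed median stands at 1.12.

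The receptors of the TOM complex, which bind precursor proteins at the mitochondrial surface, rose least among the roles in which every tested member was called. *Tomm20*, the presequence receptor, was at 75.1, 77.9 and 86.2 CPM in YT-FF libraries 1 to 3 and at 125, 121 and 121 CPM in YT-AKO libraries 1 to 3, the order used throughout. The groups did not overlap and the YT-AKO libraries were close to each other, with a log2 fold change of 0.61 (standard error 0.140, edgeR adjusted p = 0.0268) that was 0.29 and no longer called with library totals (edgeR adjusted p = 0.215) and -0.03 as a ratio of mean TPM. *Tomm22*, the receptor that also organises the complex, was at 53.0, 51.4 and 51.9 CPM in YT-FF and at 79.5, 117 and 76.2 CPM in YT-AKO. YT-AKO 2 was highest and no library overlapped, with a log2 fold change of 0.81 (standard error 0.197, edgeR adjusted p = 0.0305). *Tomm70a*, the receptor for carrier proteins that is no member by the rule, was at 84.0, 97.6 and 101 CPM in YT-FF and at 115, 114 and 110 CPM in YT-AKO, a log2 fold change of 0.26 that was not called (edgeR adjusted p = 0.211).

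*Tomm40* encodes the channel of the outer membrane. It was at 40.1, 41.4 and 46.2 CPM in YT-FF and at 77.7, 131 and 88.6 CPM in YT-AKO. All YT-AKO libraries were higher, YT-AKO 2 most, with a log2 fold change of 1.22 (standard error 0.218, edgeR adjusted p = 0.0185). *Tomm40l*, its less abundant homologue, was at 10.7, 7.60 and 12 CPM in YT-FF and at 15.3, 13.2 and 18.5 CPM in YT-AKO. The groups lay close without overlap and the log2 fold change of 0.63 was not called (standard error 0.240, edgeR adjusted p = 0.0887). Exons of *Tomm40l* are overlapped over 64.3% of their length by *Nr1i3* on the other strand, and fragments there were not counted for either gene.

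The small TOM subunits, which stabilise the channel, included one of the largest rises. *Tomm7* (chromosome 5, 23838944 to 23844161 of mm10) was at 21.5, 9.93 and 26.0 CPM in YT-FF and at 57.2, 162 and 52.6 CPM in YT-AKO. YT-FF 2 was the lowest and YT-AKO 2 the highest library, with a log2 fold change of 2.24 (standard error 0.523, edgeR adjusted p = 0.0279) that was 1.52 without YT-AKO 2. *Tomm5* was at 20.8, 18.6 and 29.8 CPM in YT-FF and at 52.0, 116 and 61.2 CPM in YT-AKO, again with no overlap (log2 fold change 1.73, standard error 0.335, edgeR adjusted p = 0.0204). *Tomm6* had low counts of 5, 4 and 10 for YT-FF and of 5, 16 and 12 for YT-AKO. The counts overlapped between the groups and were not called (log2 fold change 1.11, standard error 0.678, edgeR adjusted p = 0.250), and 84.2% of its exon length is overlapped by Gm21981, so its level is uncertain.

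*Tomm34*, which encodes a cytosolic cochaperone of import, was at 60.4, 59.0 and 53.3 CPM in YT-FF and at 53.1, 73.2 and 49.6 CPM in YT-AKO. The YT-AKO libraries lay on both sides of the YT-FF libraries, with a log2 fold change of 0.03 (standard error 0.186, edgeR adjusted p = 0.926) that was -0.17 without YT-AKO 2 and -0.33 with library totals. On the TPM scale its mean went from 72.1 ± 7.66 to 45.1 ± 3.29 (SD, n = 3), a log2 ratio close to the -0.66 of all tested genes on that scale.

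*Samm50* encodes the core of the SAM complex, which inserts barrel proteins into the outer membrane. It was at 85.2, 79.5 and 99.9 CPM in YT-FF and at 187, 274 and 202 CPM in YT-AKO. Every YT-AKO library was clearly above the YT-FF range, and its edgeR adjusted p of 0.0171 was the lowest among the members (log2 fold change 1.33, standard error 0.200). The metaxins *Mtx1* and *Mtx2* encode partners of SAM. *Mtx1* was at 26.5, 24.0 and 27.5 CPM in YT-FF and at 45.5, 100 and 47.5 CPM in YT-AKO, with YT-AKO 2 far above the others; its log2 fold change of 1.31 (edgeR adjusted p = 0.0291) was 0.84 without that library, and 30.1% of its exon length is overlapped by Gm43737. *Mtx2* was at 27.2, 30.1 and 38.3 CPM in YT-FF and at 52.4, 62.5 and 53.8 CPM in YT-AKO, a smaller and more even rise (log2 fold change 0.82, standard error 0.179, edgeR adjusted p = 0.0246) whose call was lost with library totals (0.49, edgeR adjusted p = 0.0673).

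The MIA pathway traps proteins in the intermembrane space by forming their disulfide bonds, with *Chchd4* encoding the oxidoreductase MIA40 and *Gfer* the oxidase that recharges it. *Chchd4* was at 12.9, 11.9 and 19.9 CPM in YT-FF and at 30.6, 58.4 and 28.8 CPM in YT-AKO. *Gfer* was at 24.3, 25.0 and 33.6 CPM in YT-FF and at 46.3, 88.1 and 45.4 CPM in YT-AKO. Both genes were highest in YT-AKO 2 and had no overlap between groups, with log2 fold changes of 1.40 (standard error 0.331, edgeR adjusted p = 0.0287) and 1.12 (standard error 0.291, edgeR adjusted p = 0.0358). *Gfer* was not called after the length correction (edgeR adjusted p = 0.0653), and 20.6% of its 50-base words occur in other genes.

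The small TIM chaperones escort membrane proteins across the intermembrane space, and all 5 tested members rose, with the highest median log2 fold change of any role (1.85). *Timm13* (chromosome 10, 80899450 to 80900969), whose promoter is printed above, was at 37.3, 32.1 and 54.6 CPM in YT-FF and at 133, 437 and 145 CPM in YT-AKO. Even the lowest YT-AKO library was above the highest YT-FF library by a wide gap, and the log2 fold change of 2.53 (standard error 0.490, edgeR adjusted p = 0.0204) was the largest of all members; without YT-AKO 2 it was 1.75. *Timm8b* (chromosome 9, 50603910 to 50605320), with a promoter that is also printed, was at 19.9, 19.4 and 26.6 CPM in YT-FF and at 53.7, 128 and 55.1 CPM in YT-AKO. No libraries overlapped (log2 fold change 1.85, standard error 0.360, edgeR adjusted p = 0.0205).

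Their partners moved the same way. *Timm10* was at 8.27, 5.27 and 8.65 CPM in YT-FF and at 20.3, 43.3 and 19.9 CPM in YT-AKO, with YT-FF 2 the lowest library (log2 fold change 1.91, edgeR adjusted p = 0.0201). *Timm9*, which forms a hexamer with TIM10, was at 17.9, 21.8 and 20.8 CPM in YT-FF and at 36.1, 67.5 and 35.8 CPM in YT-AKO, a smaller rise without overlap (log2 fold change 1.21, edgeR adjusted p = 0.0262). *Timm8a1*, the partner of TIM13, was at 7.25, 7.29 and 9.63 CPM in YT-FF and at 17.7, 30.9 and 18.6 CPM in YT-AKO, again without overlap (log2 fold change 1.48, edgeR adjusted p = 0.0190), and 41.0% of its 50-base words occur in other genes, so part of its fragments may have been left out. Of the summed TPM of all 39 members, the small TIM genes took 13.5%, 12.6% and 14.7% in the YT-FF libraries and 18.3%, 28.3% and 19.6% in the YT-AKO libraries. Their share was thus higher in every YT-AKO library and highest in YT-AKO 2. Most of these genes are short, and change went with gene length across all tested genes, as given below. The median log2 fold change of this role was 1.54 after the length correction. The part of gene length in the share was not tested.

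In the TIM22 complex, which inserts carrier proteins into the inner membrane, *Timm22*, the channel, was at 18.8, 15.2 and 24.8 CPM in YT-FF and at 33.5, 46.7 and 39.4 CPM in YT-AKO. The groups were separate (log2 fold change 1.03, standard error 0.225, edgeR adjusted p = 0.0249). *Timm29*, a further subunit, was at 44.9, 51.5 and 52.8 CPM in YT-FF and at 70.8, 59.4 and 60.6 CPM in YT-AKO. Its libraries did not overlap either, yet the difference was small and not called (log2 fold change 0.36, standard error 0.152, edgeR adjusted p = 0.119). *Timm10b*, a small TIM bound to this complex, had a log2 fold change of 0.94 that missed the threshold in edgeR (adjusted p = 0.0645) and passed it in DESeq2 (adjusted p = 0.0293).

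The TIM23 complex is the presequence gate of the inner membrane. *Timm50*, its receptor, was at 58.1, 59.1 and 73.7 CPM in YT-FF and at 122, 212 and 137 CPM in YT-AKO. *Timm17a*, a channel subunit, was at 40.5, 36.7 and 60.6 CPM in YT-FF and at 90.9, 164 and 95.6 CPM in YT-AKO. Both were separate between groups and highest in YT-AKO 2 (log2 fold changes 1.30 and 1.35, edgeR adjusted p = 0.0191 and 0.0246). *Timm17b*, encoding the alternative form of that subunit, was at 19.9, 21.6 and 25.0 CPM in YT-FF and at 35.1, 68.2 and 34.3 CPM in YT-AKO. Its log2 fold change of 1.05 had the highest adjusted p among the called members (0.0393 in edgeR) and was 0.65 without YT-AKO 2.

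*Timm21*, which couples TIM23 to TOM and to the respiratory chain, was at 29.1, 31.9 and 32.0 CPM in YT-FF and at 35.6, 45.9 and 39.0 CPM in YT-AKO. The YT-AKO libraries lay just above the YT-FF range, and the change was not called (log2 fold change 0.37, standard error 0.157, edgeR adjusted p = 0.115). *Timm23*, the core channel gene, had counts of 871, 766 and 862 for YT-FF and of 2024, 755 and 1209 for YT-AKO, or 37.1, 33.7 and 44.4 CPM and 118, 44.5 and 71.4 CPM; its values are given because it departed from the other members, a choice made after they were seen. It was highest in YT-AKO 1 and, among the YT-AKO libraries, lowest in YT-AKO 2, where most members were highest. The log2 fold change of 1.02 was not called in edgeR (adjusted p = 0.0600), was called in DESeq2 (adjusted p = 0.0159), and was 1.30 without YT-AKO 2 (edgeR adjusted p = 0.00462). Of its 50-base words 54.6% occur in other genes, most in Gm10273, so fragments were left out as mapping to several places, and its own level is uncertain.

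The PAM motor pulls precursors into the matrix with the chaperone mortalin, and 6 of its 7 genes rose. *Dnajc15* and *Dnajc19* encode J-proteins that drive mortalin at the channel. *Dnajc15* was at 61.8, 68.2 and 83.8 CPM in YT-FF and at 157, 361 and 194 CPM in YT-AKO. *Dnajc19* was at 20.1, 19.3 and 23.0 CPM in YT-FF and at 33.6, 77.0 and 35.3 CPM in YT-AKO. Both rose without overlap, *Dnajc15* by 1.74 on the log2 scale (standard error 0.321, edgeR adjusted p = 0.0192) and *Dnajc19* by 1.22 (standard error 0.326, edgeR adjusted p = 0.0374), and *Dnajc19* was at 0.73 without YT-AKO 2. *Pam16*, the regulator of these J-proteins, was at 20.0, 19.2 and 21.6 CPM in YT-FF and at 43.7, 115 and 38.7 CPM in YT-AKO. It was much higher in YT-AKO 2 than elsewhere, and its log2 fold change of 1.70 (standard error 0.406, edgeR adjusted p = 0.0292) was 1.02 without that library; 18.7% of its exon length is overlapped by *Glis2* and 20.0% of its 50-base words occur in other genes.

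The nucleotide exchange factors of mortalin parted. *Grpel1* was at 49.7, 50.4 and 71.1 CPM in YT-FF and at 132, 213 and 137 CPM in YT-AKO. Every YT-AKO library was above the YT-FF range (log2 fold change 1.49, standard error 0.249, edgeR adjusted p = 0.0177). *Grpel2*, its paralogue, was at 25.3, 24.1 and 24.3 CPM in YT-FF and at 24.1, 22 and 22.5 CPM in YT-AKO. These values were nearly level, and the log2 fold change of -0.10 (standard error 0.146, edgeR adjusted p = 0.623), the only negative one among the members, was 0.18 after length correction. *Hspa9* itself, which encodes mortalin, and *Timm44*, which tethers it to TIM23, rose by 0.69 and 0.88 on the log2 scale (edgeR adjusted p = 0.0322 and 0.0177). The call of *Hspa9* was lost with library totals (0.38, edgeR adjusted p = 0.178) and held in 1 of the 6 fits with a library left out, that without YT-AKO 2, and the log2 ratio of its mean TPM was 0.07.

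The processing peptidase consists of a catalytic subunit, encoded by *Pmpcb*, and a substrate-binding one, encoded by *Pmpca*. *Pmpcb* was at 78.4, 78.6 and 105 CPM in YT-FF and at 161, 241 and 157 CPM in YT-AKO, with no overlap (log2 fold change 1.10, standard error 0.225, edgeR adjusted p = 0.0224). *Pmpca* was at 60.9, 65.7 and 73.8 CPM in YT-FF and at 85.7, 57.8 and 101 CPM in YT-AKO. Its value in YT-AKO 2 was the lowest of all 6 libraries, so the groups overlapped, and the log2 fold change of 0.29 was not called (edgeR adjusted p = 0.352); without YT-AKO 2 it was 0.48 (edgeR adjusted p = 0.0305), and 20.4% of its exon length is overlapped by *Inpp5e*.

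*Hspd1* and *Hspe1* are neighbours on chromosome 1, at 55077835 to 55088243 and at 55088132 to 55091307, and share the promoter stretch printed above. *Hspd1* was at 241, 245 and 298 CPM in YT-FF and at 497, 564 and 438 CPM in YT-AKO. *Hspe1* was at 61.8, 56.2 and 75.6 CPM in YT-FF and at 163, 404 and 142 CPM in YT-AKO. Both were separate between groups, with log2 fold changes of 0.93 for *Hspd1* (standard error 0.185, edgeR adjusted p = 0.0207) and 1.87 for *Hspe1* (standard error 0.399, edgeR adjusted p = 0.0238), the latter 1.24 without YT-AKO 2. Of their 50-base words, 39.7% and 18.4% occur in other genes.

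Levels per length ranged widely among the members. In YT-FF *Hspd1* was highest with 375 ± 28.7 TPM (SD, n = 3), then *Hspa9* with 322 ± 18.6, *Hspe1* with 165 ± 17.7 and *Timm8b* with 160 ± 21.5, the last pair differing by less than their spread. *Tomm40l* (7.42 ± 1.38 TPM) and *Tomm6* (0.993 ± 0.565 TPM) were the lowest tested members. In YT-AKO the first 5 had overlapping ranges of mean ± SD: *Hspd1* was at 450 ± 75.2 TPM, *Timm13*, which was sixth in YT-FF (114 ± 26.8 TPM), at 372 ± 161 TPM, beside *Hspe1* (350 ± 115), *Hspa9* (338 ± 106) and *Timm8b* (337 ± 83.0). In YT-AKO 2 *Hspd1*, at 374 TPM, was below *Timm13* (558), *Hspe1* (480) and *Timm8b* (433). The summed TPM of all members was 2427, 2429 and 2777 in the YT-FF libraries and 3772, 4063 and 3577 in the YT-AKO libraries, higher in every YT-AKO library.

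**Figure D3:**
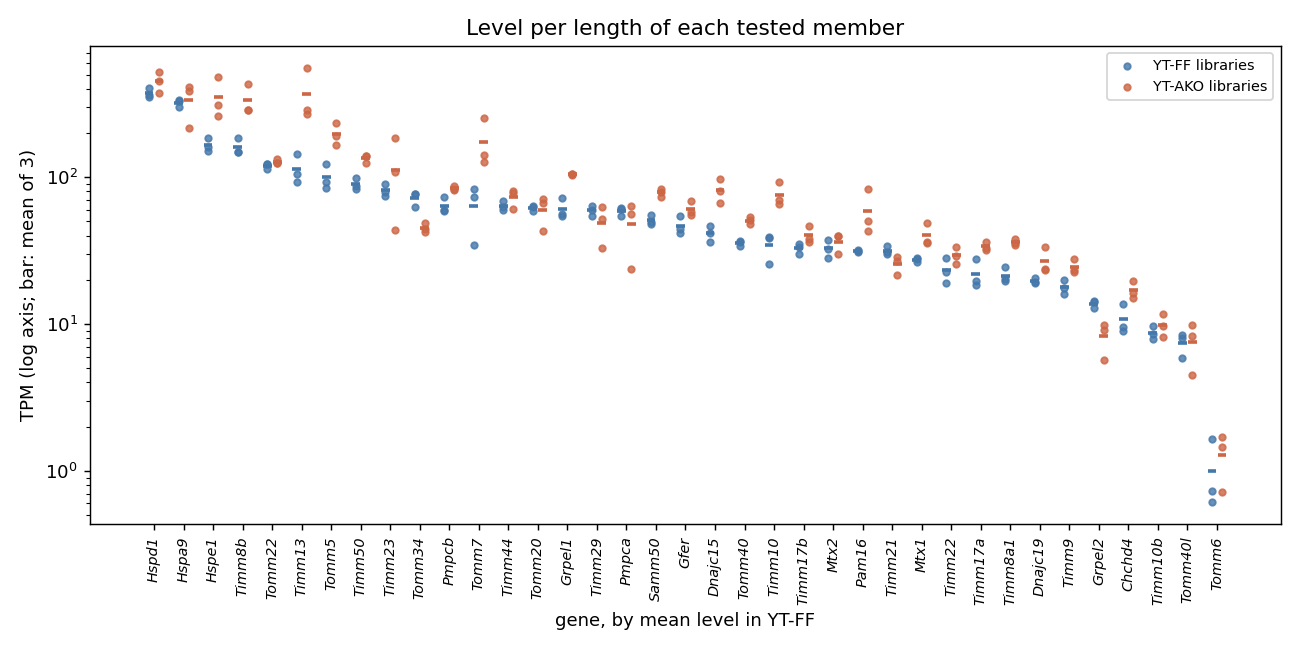
Each point is the TPM (log axis) of a tested member in 1 library, ordered along the x axis by mean level in YT-FF, with bars at the mean of 3. *Hspd1* stands first at 375 TPM and *Tomm6* last at 0.993 TPM in YT-FF, and *Timm13* moved from 114 to 372 TPM.

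Ratios within a library do not depend on the scaling between libraries, so 7 pairs of members were compared that way. The count ratio of *Grpel2* to *Grpel1* was 0.443 in YT-FF and 0.150 in YT-AKO (log2 means -1.20 ± 0.31 and -2.78 ± 0.44, SD, n = 3). This difference of -1.58 was the largest of the pairs, and no libraries overlapped (two-sided exact permutation test, p = 0.1, adjusted over the pairs 0.140). The ratio of *Dnajc15* to *Dnajc19* was 3.41 in YT-FF and 4.95 in YT-AKO, a log2 difference of 0.54 without overlap. *Hspe1* to *Hspd1* went from 0.246 to 0.456, *Pmpcb* to *Pmpca* from 1.30 to 2.54 and *Timm8b* to *Timm8a1* from 2.72 to 3.37, each without overlap, at log2 differences of 0.79, 0.83 and 0.30. The exact p was 0.1 for each of these 5 pairs, which is the smallest that 3 libraries against 3 allow, so none can reach 0.05. For *Timm17b* to *Timm17a* (-0.35, exact p = 0.2) and *Tomm40l* to *Tomm40* (-0.54, exact p = 0.3) the groups overlapped. Without YT-AKO 2 the log2 difference fell to 0.40 for *Pmpcb* to *Pmpca*, 0.41 for *Hspe1* to *Hspd1*, 0.14 for *Timm8b* to *Timm8a1* and -0.20 for *Tomm40l* to *Tomm40*, while it was -1.33 for *Grpel2* to *Grpel1* and 0.57 for *Dnajc15* to *Dnajc19*.

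**Figure D4:**
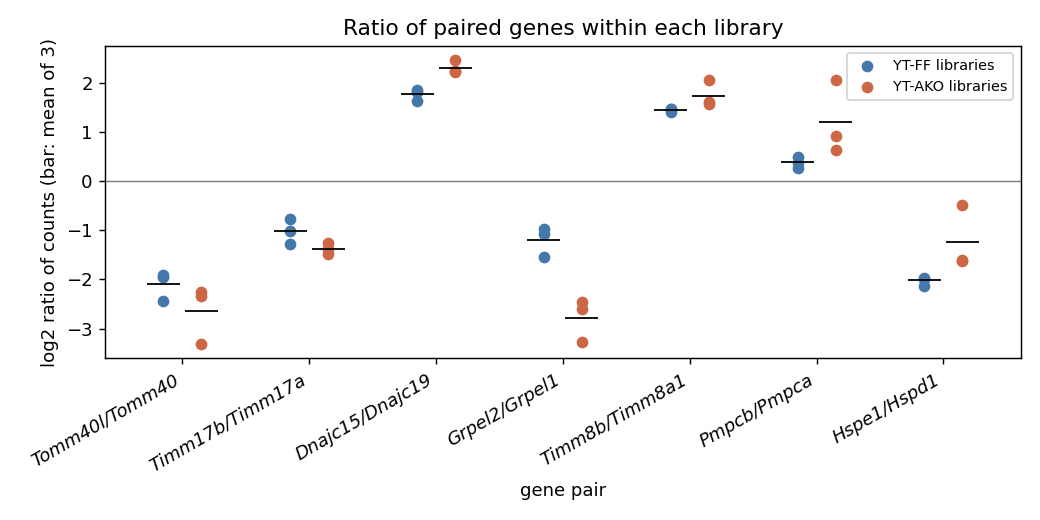
Each point is the log2 ratio of the counts of 2 members within 1 library (y axis), with bars at the mean of 3, for 7 pairs (x axis). *Grpel2* to *Grpel1* drops from -1.20 to -2.78, and YT-AKO 2 is the outlying point of *Pmpcb* to *Pmpca* and *Hspe1* to *Hspd1*.

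The change went with gene length. Across the 37 tested members the log2 fold change and the exon length had a Spearman's rho of -0.39, and across all 16807 tested genes, measured in the same libraries, it was -0.38; without YT-AKO 2 the values were -0.37 and -0.28. Genes are not independent replicates, so these are descriptions. The 8 tested members with exons under 1500 bp, among them *Timm8b*, *Timm10*, *Tomm5*, *Tomm7*, *Timm13* and *Hspe1*, had a median log2 fold change of 1.86 and 7 were called, where 21.8% of all genes under that length rose. The 29 longer members had a median of 1.03 and 21 were called, where 11.1% of all longer genes rose. After a correction for length, which left a rho of -0.06 among the members, 25 members were called, where 9.57% of all tested genes were called higher, at a median of 1.09 beside 0.08 for all tested genes. The members lost were *Tomm22*, *Gfer* and *Timm17b*, and the medians were 1.50 for the short and 0.91 for the longer members.

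**Figure D5:**
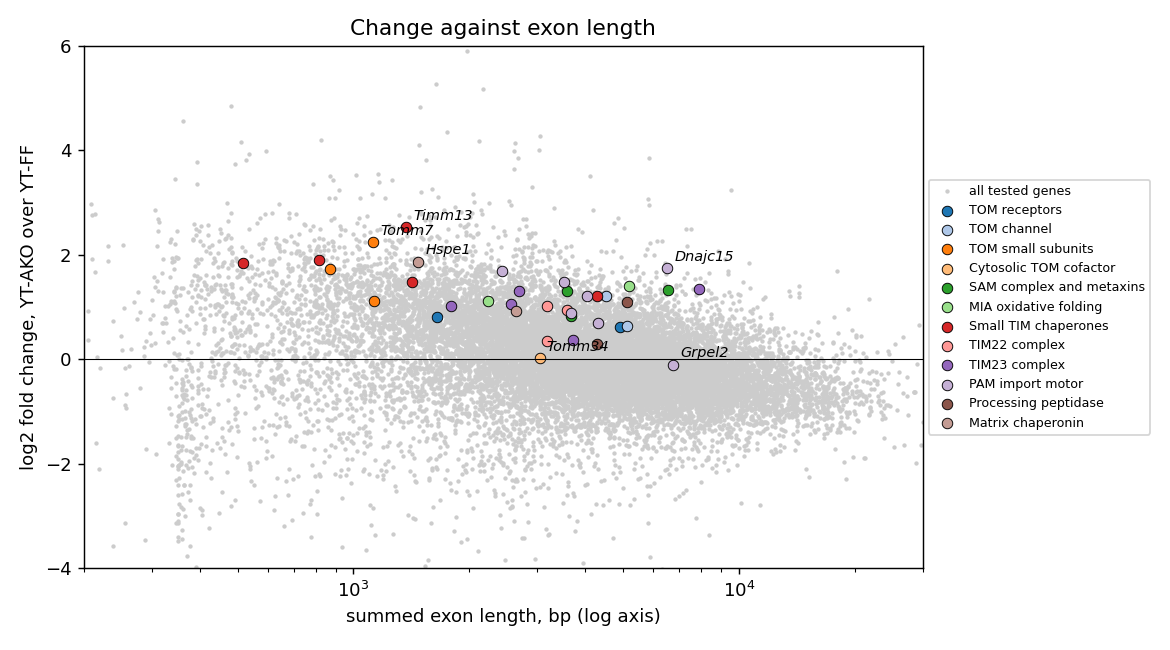
The log2 fold change of YT-AKO over YT-FF (y axis) is plotted against summed exon length (x axis, log) for all tested genes in grey, of which 134 fall outside the axes, and for the 37 tested members coloured by role. Members sit mostly above 0 at every length, and those under 1500 bp reach the largest values, 2.53 for *Timm13* and 2.24 for *Tomm7*.

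Other genes of the import pathway were taken from a list. Of 13 tested, 9 rose and 1 fell, with a median log2 fold change of 0.74. For this and the next lists, 12.6% of all tested genes rose and 9.01% fell. *Romo1*, which encodes a small inner membrane protein linked to TIM21 and YME1L, rose by 2.58 (edgeR adjusted p = 0.0217), and *Mtx3*, a metaxin, fell by 0.49 on the log2 scale (edgeR adjusted p = 0.0489). *Pitrm1*, encoding a peptidase that degrades cut presequences, had a log2 fold change of 0.02. Of 12 matrix and inner membrane proteases and chaperones 8 rose (median 0.86), with *Phb* at 1.58 (edgeR adjusted p = 0.0185) and *Yme1l1* at -0.13, which was not called. Among 10 cytosolic chaperones that deliver precursors 6 rose (median 0.78), *Hspa8*, the constitutive HSC70, by 1.13 (edgeR adjusted p = 0.0197).

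Genes of the translocation route into the endoplasmic reticulum gave a comparison with import at another membrane. Of 23 tested, 8 rose, where 12.6% of all tested genes rose, with a median log2 fold change of 0.37 that was 0.03 with library totals. They ran from *Sec61b* at 1.51 (edgeR adjusted p = 0.0275) to *Sec61a1* at -0.66, which was not called. Genes for typical cargo of the import machinery were also higher. Of 76 nuclear-encoded subunits of oxidative phosphorylation 73 rose, with a median log2 fold change of 1.85, and of 77 mitochondrial ribosomal protein genes 69 rose, with a median of 1.29. By library, the median deviation of the subunits was -0.95, -1.03 and -0.59 in the YT-FF libraries and 0.49, 1.66 and 0.53 in YT-AKO, the same order of libraries within each group as for the import genes. The difference between these lists was not tested.

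Markers of cell types also differed between the libraries. The called counts below stand beside 12.6% of all tested genes that rose and 9.01% that fell. The 8 beige and brown thermogenic genes, of which 6 rose, had a summed level of 184 to 253 CPM in YT-FF and 1677 to 3634 CPM in YT-AKO, highest in YT-AKO 2 as for most import genes. The 6 skeletal muscle markers, of which 1 rose, summed to 432, 117 and 170 CPM in YT-FF and 3136, 450 and 209 CPM in YT-AKO. YT-AKO 1, the highest, is also the library where the tested members *Tomm20*, *Timm29*, *Timm23* and *Hspa9* had their highest level. By contrast, 30 of the 37 tested members were highest in YT-AKO 2, where the muscle sum was 450 CPM. The 5 B cell markers, of which 2 fell, summed to 852 to 988 CPM in YT-FF and 518 to 869 in YT-AKO. The 6 macrophage markers, with all 6 not called, summed to 1048 to 1227 CPM and 1389 to 1693 CPM, the 6 fibroblast markers, of which 2 rose and 1 fell, to 1718 to 2237 and 1918 to 3054, and the 5 endothelial markers, of which 1 fell, to 571 to 619 and 502 to 791. The 5 T cell markers, of which 1 fell, summed to 237 to 349 CPM and 204 to 517 CPM, the 5 Schwann cell markers, of which 1 rose, to 247 to 306 and 308 to 511, and the 5 epithelial markers, of which 2 were tested and not called, to 3.66 to 5.10 and 3.84 to 4.88. Each of these markers had a count in at least 1 library. The part of these cells in the levels of the import genes was not tested.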

How the data were processed

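Total scWAT RNA of 3 mice per genotype was sequenced as paired ends, and the replicates are separate mice per the study's methods. The authors mapped reads to mm10 with HISAT2 (2.1.0) and counted fragments with featureCounts (2.0.1) on GENCODE vM25 exons, without strand and skipping fragments with several map positions or on several genes. The deposited values are raw counts per gene. The exon length deposited beside them was used for TPM. Symbols were matched by identifier for 55141 of 55401 genes (260 not matched) with GENCODE vM21, whose transcripts also gave shared 50-base words.

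Counts were tested with edgeR 4.0.16 in R 4.3.3 (TMM, filterByExpr with minimum count 10 and minimum total 15, quasi-likelihood test, Benjamini-Hochberg adjustment over all 16807 tested genes, biological coefficient of variation 0.288). Pair ratios used raw counts with a prior of 0.5 counts and two-sided exact permutation tests (scipy 1.17.1). With totals of 17740987 to 21838493 per library and the TMM factors, 3 counts are 0.128 to 0.177 CPM, which covers counting error only. Alternatives were DESeq2 1.42.0, limma-voom (limma 3.58.1), DESeq2 size factors, upper-quartile factors, library totals, no filter, a minimum of 10 counts per library, a robust fit, a replicate block, a length correction (spline, 6 degrees of freedom), each library left out, a prior of 2 counts and gene spans for TPM. The length correction without YT-AKO 2 was added after the data were seen. The procedures were tested on simulated counts.

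The members, the lists and the rule for genes given with values were chosen with earlier results of these data known. In each role every called member was given by library where at most 3 were called, otherwise the 2 with the largest change, plus the member with the smallest change and both genes of each pair. Genes of other lists were limited to the largest rise, largest fall and smallest change.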

Additional observations from a re-analysis of the deposited data

How the results depend on the processing

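The replicate block apart, 23 to 30 members were called higher under every alternative that kept all 6 libraries. Under those same alternatives 1137 (library totals) to 3031 (DESeq2) of all tested genes were called higher. In any alternative 0 members were called lower, and edgeR, DESeq2 and limma-voom gave 0 members a negative change at an unadjusted p under 0.05. With a library left out, 0 to 32 members were called higher and the median log2 fold change ran from 0.84, without YT-AKO 2, to 1.37, without YT-AKO 1. Without YT-FF 1 or YT-FF 2 the count was 0, where 0% of all tested genes were called higher. Without YT-FF 3 it was 16, where 4.03% of all tested genes were. The median was 0.77 with library totals and 0.84 with the length correction without YT-AKO 2, an alternative added after the data were seen. The cause of these changes was not tested.

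Over the 33 genes that the rule gives with values, *Timm23* not among them, 453 alternative results kept direction and side of the threshold, 123 lost the threshold, 5 passed it and 12 turned. *Tomm34* turned to -0.02 (upper-quartile factors), -0.33 (library totals), -0.0037 (at least 10 counts in every library), -0.05 (length correction), -0.07 (length correction with replicate block), -0.02 (without YT-FF 3) and -0.25 (length correction without YT-AKO 2), and with a library left out it ran from -0.17, without YT-AKO 2, to 0.14, without YT-AKO 3. *Pmpca* turned to -0.01 with library totals, and *Grpel2* to 0.18 with the length correction, 0.18 with the block added and 0.12 with the length correction without YT-AKO 2. The pair ratios kept their direction in every alternative run. The median TPM of the tested members was 46.8 with exon lengths and 33.1 with gene spans.

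The replicate numbers were checked for pairing, and the deviations of same-numbered libraries correlated at 0.114, -0.111 and -0.0906. Such correlations, without a reference spread, cannot exclude a pairing, and the main test treated the libraries as unpaired. With the replicate number as a block edgeR called 0 members higher, at a median of 1.08, where 24 of all 16807 tested genes were called higher. With block and length correction it called 0 members higher, at a median of 1.07, where 46 of all tested genes were. Depth limits *Tomm6*, *Tomm20l* and *Timm8a2*, with at most 16 counts in a library.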
